A study of Homo sapiens with 6 samples.

Results

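The cadherin genes and the protocadherins outside the large gene clusters were taken as every row of the authors' deposited table whose symbol was CDH, CDHR or PCDH followed by a number alone, FAT1 to FAT4, CELSR1 to CELSR3, DCHS1 or DCHS2, leaving out CDH17. This gave 44 of the 16953 genes in the table. CDH7, CDH9 and CDHR5 fit the same pattern of names and were not analysed here.

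RNA had been sequenced from 6 samples of H1048, a human small cell lung cancer cell line labelled as wild type. Of these, 3 had been exposed for 48 h to ISP-I (isovalerylspiramycin I, a macrolide) at 10 µM and 3 to the solvent DMSO, in medium with fetal bovine serum, penicillin and streptomycin. All samples came from this 1 line, and the series calls the 3 samples of each treatment biological replicates. The authors' deposited table compares libraries D, E and F with libraries A, B and C, and which treatment either set of letters received is not stated. A gene called lower or higher below is lower or higher in the D, E and F set than in the other, which leaves the direction of the drug's effect unassigned, and values per library, levels and depth were not used here.

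Cadherins are membrane proteins that hold neighbouring cells together through repeated extracellular domains kept rigid by calcium. Classical cadherins bind the same kind of cadherin on the next cell, and their tails carry p120-catenin and beta-catenin, which alpha-catenin links to actin. In epithelial tumours the classical member CDH1 (E-cadherin) is the best known marker of the epithelial state, while the giant and seven-pass members orient cells within a sheet and the delta protocadherins act mainly in the nervous system.

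Classical cadherins fall into types I and II by the adhesive arm at the start of the mature protein, where type I members insert a single tryptophan into the partner molecule and type II members insert a pair. The arm is shown because both types held genes that differed between the library sets. Capitals mark 3 in-frame codons, TGGGTNATN for type I and TGGGTNTGG for type II, read on the coding strand of GENCODE 29 transcripts (GRCh38) within 57 coding bases in a single exon. The printed genes are the classical members with an adjusted p under 0.05 that hold the pattern.
CDH1 (chr16:68808478-68808534, plus strand, first capital codon 156): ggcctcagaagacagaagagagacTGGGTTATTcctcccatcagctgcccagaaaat
CDH2 (chr18:28011879-28011935, minus strand, first capital codon 161): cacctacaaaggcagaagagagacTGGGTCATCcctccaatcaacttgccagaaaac
CDH15 (chr16:89179488-89179544, plus strand, first capital codon 47): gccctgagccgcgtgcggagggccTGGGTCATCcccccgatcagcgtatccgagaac
CDH22 (chr20:46251073-46251129, minus strand, first capital codon 64): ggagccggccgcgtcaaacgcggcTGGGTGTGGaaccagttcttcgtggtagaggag
CDH24 (chr14:23055566-23055622, minus strand, first capital codon 46): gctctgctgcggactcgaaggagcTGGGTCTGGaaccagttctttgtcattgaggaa
CDH12 (chr5:22078479-22078535, minus strand, first capital codon 56): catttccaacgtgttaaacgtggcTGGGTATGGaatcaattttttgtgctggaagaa
CDH8 (chr16:62021185-62021241, minus strand, first capital codon 63): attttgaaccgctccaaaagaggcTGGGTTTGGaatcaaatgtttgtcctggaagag
CDH18 (chr5:19838792-19838848, minus strand, first capital codon 55): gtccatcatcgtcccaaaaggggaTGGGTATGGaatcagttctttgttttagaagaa
Among the first 250 codons, the type I pattern was found in 4 of 5 type I members (CDH1, CDH2, CDH4 and CDH15), and the type II pattern in 8 of 11 type II members and in none of any other role. The type I letters were also in CDH26, at codon 56, and in CDH19, a type II member. In CDH19 they were at codon 221, while its type II pattern was at codon 45. Across 19496 coding sequences of the annotation, 1 per gene, 1.21% held the type I letters and 0.308% the type II pattern in that stretch. The absence of these letters, as in CDH3, says nothing about the protein beyond that.

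Members of the family were more often lower than higher in libraries D to F. By the authors' deposited adjusted p, 19 of the 38 members with such a value (50%) were lower at a threshold of 0.05 and 4 (10.5%) were higher, against 27.9% lower and 29.7% higher among all 15976 genes with an adjusted p. Called in either direction were 23 of 38 members, where 57.6% of all genes were. At least 2-fold, 13 members were lower and 4 higher, where 11.3% and 12.8% of all genes were. The median log2 fold change over all 44 members was -0.43, and that over all 16953 genes was 0.06. At a stricter adjusted p under 0.01, 17 members were lower and 1 was higher, since CDH15, CDH18 and CDHR4 no longer passed. The counts are descriptive, and no test of the family against other genes was made.

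The remaining 15 tested members did not pass, and 6 members (CDH4, CDH10, CDH13, CDH16, DCHS2 and PCDH15) carried an adjusted p of exactly 1, which is treated here as no adjusted p. CDH13, which encodes the lipid-anchored T-cadherin, and CDH16, a kidney cadherin, shared 1 fold change to 3 decimals with 377 rows of the deposited table in all, so that value carries no information on either gene.

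The table holds no standard errors. For each gene, the error that a two-sided Wald test would need to give the deposited p at the deposited fold change was computed and is called the implied standard error. It is meaningful only if the authors used that test without shrinking fold changes, which the sources used here do not state. It was smallest for CDH24 (0.082 on the log2 scale), and among members with an adjusted p it reached 3.05 for CDH5, the endothelial VE-cadherin.

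**Figure D1:**
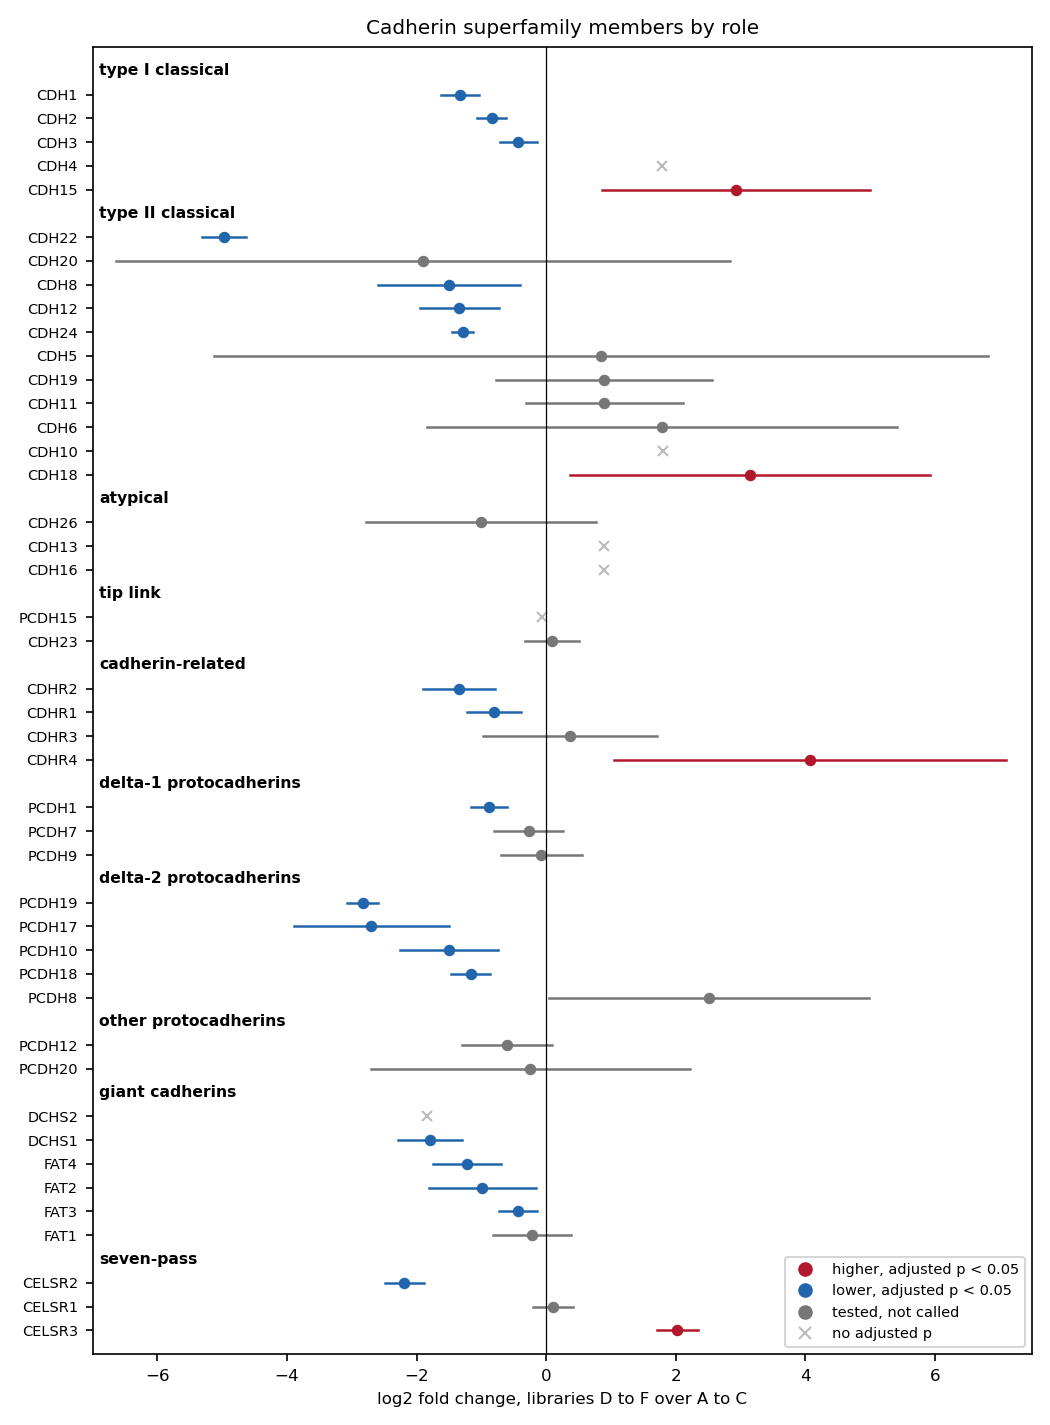
Log2 fold change of each of the 44 members (horizontal axis, libraries D to F over A to C, from the authors' deposited table), grouped by role; bars are 95% intervals from the implied standard error, crosses are members with no adjusted p, and a bar reaching the frame runs on beyond it. Blue points (19 lower) outnumber red ones (4 higher), and 3 of the 4 red bars are wide.

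Of the type I classical cadherins, 3 of the 4 tested members were lower (75%) and 1 was higher (25%), beside 27.9% and 29.7% of all genes. CDH1 (chromosome 16, 68737225 to 68835548 on GRCh38, plus strand) was 2.52-fold lower, with a log2 fold change of -1.34, an implied standard error of 0.15 and an adjusted p of 3.94e-18 per the authors' deposited table. CDH2, the N-cadherin of neural and mesenchymal cells, was 1.79-fold lower (-0.84, adjusted p = 1.28e-12), so E- and N-cadherin moved in the same direction. CDH3 (P-cadherin), which lies 14.6 kb from CDH1 with no coding gene between them, was 1.35-fold lower (-0.43, adjusted p = 0.00607). The implied 95% intervals of CDH1 (-1.63 to -1.04) and CDH3 (-0.72 to -0.15) did not overlap, and the difference between these neighbours was not itself tested.

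CDH15, the M-cadherin of muscle, was the type I member listed higher, at 7.61-fold (log2 fold change 2.93, adjusted p = 0.0111 per the authors' deposited table). Its implied standard error was 1.06 and its interval ran from 0.86 to 5.00. CDH4 (R-cadherin) had no adjusted p.

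Type II held the largest decrease of the family. CDH22, first described in pituitary and brain, was 31.4-fold lower (chromosome 20, 46173733 to 46308498, minus strand; log2 fold change -4.97, implied interval -5.31 to -4.64, adjusted p = 1.81e-179), which placed it 28th of all genes by p in the authors' deposited table. CDH24, a type II member that binds catenins, was 2.44-fold lower (-1.29, adjusted p = 6.77e-54) and had the narrowest interval of the family, -1.45 to -1.13. The brain cadherins CDH12 (-1.34, adjusted p = 4.77e-05) and CDH8 (-1.50, adjusted p = 0.0138) were lower by similar folds with wider intervals.

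CDH18, another brain cadherin, was listed 8.86-fold higher, with an adjusted p of 0.0465 in the authors' deposited table and an implied interval from 0.37 to 5.93. Its call ended when fold changes were centred on the median of all genes and p was recomputed from the implied errors (adjusted p = 0.0512). It lies next to CDH12 on chromosome 5, with no coding gene in the 1175 kb between them, and the pair had opposite signs. The other 5 tested members of type II (CDH5, CDH6, CDH11, CDH19 and CDH20) had log2 fold changes from -1.90 to 1.79 and adjusted p from 0.213 to 0.832. Among these, CDH11 of mesenchymal cells was at 0.90 and the Schwann cell lineage cadherin CDH19 at 0.89, both with intervals that crossed 0. CDH10 had no adjusted p.

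The delta-2 protocadherins, whose tails bind the WAVE complex that drives actin branching, were lower in 4 of 5 members (80%). The share of all genes that were lower was 27.9%, and 29.7% were higher. PCDH19, the X-linked gene of a female-limited epilepsy, was 7.11-fold lower (chromosome X, 100291644 to 100410273, minus strand; log2 fold change -2.83, implied interval -3.07 to -2.59, adjusted p = 1.58e-119) and stood 80th of all genes by p in the authors' deposited table. PCDH17 was 6.49-fold lower with a wider interval (-2.70, from -3.90 to -1.50, adjusted p = 3.00e-05). PCDH10 (-1.50, adjusted p = 0.000278) and PCDH18 (-1.17, adjusted p = 4.80e-13) were lower by 2.83-fold and 2.24-fold. PCDH10 and PCDH18 lie on chromosome 4, 4310 kb apart with 1 coding gene between them.

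PCDH8, the fifth delta-2 member, was listed at a log2 fold change of 2.51 with an unadjusted p of 0.0454 and an adjusted p of 0.0751, and so was not called. Of the delta-1 members, PCDH1 of airway epithelium was 1.83-fold lower (-0.87, adjusted p = 2.78e-09 per the authors' deposited table). PCDH7 (-0.27, adjusted p = 0.412) and PCDH9 (-0.07, adjusted p = 0.862) did not pass, with implied intervals of -0.80 to 0.26 and -0.70 to 0.56. PCDH12, an endothelial protocadherin, was at -0.60 (adjusted p = 0.14) and PCDH20 at -0.24 (adjusted p = 0.881).

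Among the giant cadherins, of which the FAT4 and DCHS1 proteins bind each other across cell contacts, 4 of 5 tested members were lower (80%). Beside this, 27.9% of all genes were lower and 29.7% higher, and 2 of the 4 giant members were lower by at least 2-fold. DCHS1 was 3.45-fold lower (log2 fold change -1.79, implied interval -2.28 to -1.29, adjusted p = 6.94e-12 per the authors' deposited table) and its partner FAT4 2.33-fold lower (-1.22, adjusted p = 1.66e-05). FAT2 (-0.98, adjusted p = 0.036) and FAT3 (-0.43, adjusted p = 0.00812) were lower by 1.98-fold and 1.35-fold. FAT1, a frequently mutated member in carcinomas, was at -0.22 and did not pass (adjusted p = 0.557, interval -0.82 to 0.38). DCHS2 had no adjusted p.

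The 3 seven-pass cadherins, the vertebrate relatives of fly flamingo that sit in the planar polarity complex, were divided. In this group 1 was lower, 1 higher and 1 not called, where 27.9% of all genes were lower and 29.7% higher. CELSR2 was 4.55-fold lower (chromosome 1, 109250019 to 109275750, plus strand; log2 fold change -2.19, implied interval -2.49 to -1.88, adjusted p = 1.10e-42). CELSR3 was 4.07-fold higher (chromosome 3, 48636469 to 48662915, minus strand; 2.03, interval 1.71 to 2.34, adjusted p = 2.79e-35 per the authors' deposited table). CELSR1 was at 0.10 with an interval of -0.21 to 0.41 and did not pass (adjusted p = 0.605). CELSR3 was the only one of the 4 higher members with an implied standard error under 0.25.

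Of the cadherin-related genes, CDHR2, which links the microvilli of the intestinal brush border, was 2.54-fold lower (log2 fold change -1.34, adjusted p = 6.56e-06 per the authors' deposited table). CDHR1, a photoreceptor cadherin, was 1.75-fold lower (-0.81, adjusted p = 0.000369). CDHR4 was listed 16.8-fold higher, with an implied interval from 1.04 to 7.10 and an adjusted p of 0.0162, and CDHR3, the airway receptor of rhinovirus C, was not called (0.37, adjusted p = 0.666). The tip link gene CDH23 of inner ear hair cells was at 0.09 (adjusted p = 0.744), its partner PCDH15 had no adjusted p, and CDH26 was at -1.01 without passing (adjusted p = 0.351).

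**Figure D2:**
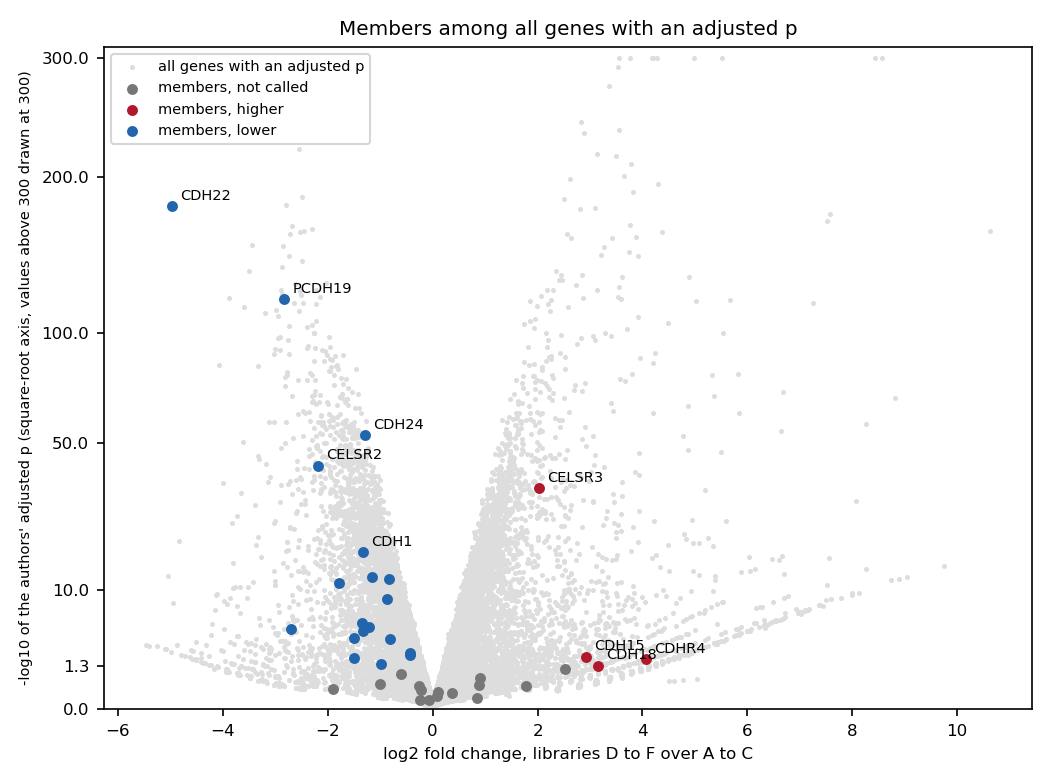
Each tested gene by its log2 fold change (horizontal axis) and -log10 of the authors' adjusted p (vertical axis, square-root scale): grey points are the 15976 genes with an adjusted p, coloured points the 38 members among them. CDH22 and PCDH19 stand high among the genes called lower, of which they are 6th and 27th by p. CELSR3 is the red point well above the axis, and CDH15, CDH18 and CDHR4 lie near the threshold.

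The precision of the values differed between the calls. Of the 14 tested members with an implied standard error under 0.25, 11 were lower, 1 was higher and 2 were not called, where 36% of the 10517 genes in that range were lower and 34.6% higher. Of the 14 members with an error over 0.5, 2 were lower (CDH8 and PCDH17), 3 higher (CDH15, CDH18 and CDHR4) and 9 not called, where 6.34% of the 3708 genes in that range were lower and 16.7% higher. Of the 10 members between these limits, 6 were lower and 4 were not called, where 24.5% of all genes were lower and 27.2% higher.

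Cadherin genes are long, and span was not part of how they were chosen. The 44 members, with the 6 that had no adjusted p included, had a median span of 111 kb, and all genes tested one of 32.3 kb. Among tested members the median was 86.4 kb for those lower, 25.1 kb for those higher and 139 kb for those not called. Among all tested genes over 100 kb, 32.8% were lower and 26% higher, and of the 18 members in that range 7 were lower and 1 higher. Among genes of 20 to 100 kb, 29.1% were lower and 31.1% higher, and of the 15 members there 10 were lower and 2 higher. Under 20 kb, 23.7% of genes were lower and 29.9% higher, and of the 5 members there 2 were lower and 1 higher. The part of gene length in these counts was not tested.

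Whether counting used strand is not stated in these sources, and without it reads from overlapping genes cannot be told apart. Of the 23 called members, 10 overlapped no other annotated gene, among them CDH22, CDH24, CELSR2, PCDH19 and PCDH18. CDHR2 overlapped the coding gene GPRIN1, and 11 called members, CDH1 and CDH2 included, overlapped a gene on the opposite strand. Overlap was taken between whole gene spans, introns included, and overlap of exons was not examined. The share of all genes with such an overlap was not computed.

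Of 15 tested catenins and other proteins of the cell junction, 12 were lower (80%), 1 was higher (6.67%) and 2 did not pass, where 27.9% of all genes were lower and 29.7% higher. The median log2 fold change of this list was -0.46. Plakoglobin (JUP, a beta-catenin relative that also serves desmosomes) was 2.96-fold lower (-1.57, adjusted p = 1.06e-55 per the authors' deposited table) and p120-catenin (CTNND1, which keeps cadherins at the surface) 2.54-fold lower (-1.35, adjusted p = 1.09e-54). NECTIN1, an adhesion receptor of the same junctions, was at -1.31 and ARVCF, a p120 relative, at -0.79. Beta-catenin (CTNNB1, -0.42, adjusted p = 1.44e-06) and the alpha-catenin gene CTNNA1 (-0.35, adjusted p = 5.77e-05) were lower by 1.34-fold and 1.27-fold. Another alpha-catenin gene, CTNNA2, was 6.08-fold lower (-2.60, adjusted p = 7.10e-05) with an implied standard error of 0.62, and CTNNA3 had no adjusted p. The member of the list called higher was EPCAM, an epithelial adhesion molecule outside the cadherin family, which was 1.46-fold higher (0.55, adjusted p = 8.35e-07).

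Of 9 transcription factors that act on cadherin genes, 4 were higher (44.4%) and 0 lower, beside 29.7% and 27.9% of all genes. When fold changes were centred on the median of all genes and p was recomputed from the implied errors, 4 were higher and 2 (GRHL2 and TWIST1) lower. The repressors of CDH1, SNAI1 (6.76-fold, adjusted p = 2.69e-20), SNAI2 (2.48-fold, adjusted p = 1.43e-07) and ZEB1 (10.3-fold, adjusted p = 1.23e-05), were higher, ZEB1 with an implied standard error of 0.73. OVOL1, which opposes ZEB1 in epithelia, was 10.6-fold higher as well (adjusted p = 2.16e-99 per the authors' deposited table). ZEB2 (-0.10), TWIST1 (-0.19), TWIST2 (0.38), OVOL2 (0.17) and the epithelial activator GRHL2 (-0.21) did not pass.

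Of 8 genes for the cutting or removal of cadherins, 3 were lower (37.5%) and 1 was higher (12.5%), beside 27.9% and 29.7% of all genes. With the same centring 5 were lower and 1 was higher. ADAM10, which sheds the outer part of E- and N-cadherin, was 2.64-fold lower (log2 fold change -1.40, adjusted p = 6.67e-53 per the authors' deposited table). The gamma-secretase subunits NCSTN (-0.95) and APH1A (-0.42) were also lower. CBLL1 (Hakai, a ubiquitin ligase for E-cadherin) was 2.57-fold higher (1.36, adjusted p = 2.48e-38).

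Of 3 tested partners of the giant cadherins, 2 were lower (66.7%) and 1 was higher (33.3%), beside 27.9% and 29.7% of all genes. FJX1, the relative of the fly kinase four-jointed that modifies Fat and Dachsous, was 12.5-fold higher (log2 fold change 3.64, adjusted p = 2.40e-201 per the authors' deposited table) while DCHS1 and FAT4 were lower. ATN1 (-0.73) and LIX1L (-1.42) were lower, and DLG5 had no adjusted p.

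Of 10 planar polarity genes that work with the seven-pass cadherins, 5 were lower and 1 was higher. The membrane proteins VANGL2 (4.35-fold lower, log2 fold change -2.12, adjusted p = 1.07e-61 per the authors' deposited table) and VANGL1 (-0.73) and the receptor FZD3 (-0.94) were lower, as were ANKRD6 (-1.03) and DVL3 (-0.53). FZD6 was called higher at the threshold itself (0.23, adjusted p = 0.0499), a call that ended when p was adjusted over every row (adjusted p = 0.053) and with the same centring (adjusted p = 0.167), which gave 6 lower and 0 higher. PRICKLE1, PRICKLE2, DVL1 and DVL2 did not pass. The shares of the list were 50% lower and 10% higher, beside 27.9% and 29.7% of all genes.

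Of 10 genes of the WAVE complex and its delta-2 protocadherin contacts, 5 were lower (50%) and 1 was higher (10%). Of all genes, 27.9% were lower and 29.7% higher. With the same centring 6 of the list were lower and 1 was higher. CYFIP2 was 3.34-fold lower (log2 fold change -1.74, adjusted p = 1.50e-46 per the authors' deposited table), CYFIP1 2.05-fold lower (-1.03) and the small subunit BRK1 1.89-fold lower (-0.92). TAOK2, a kinase that binds PCDH8, was at -0.82 and ABI2 at -0.62, while ABI1 was at 0.34 and the WASF1, WASF2, WASF3 and NCKAP1 genes did not pass. Of 9 brush border and tip link partners 2 were higher (22.2%) and 1 lower (11.1%), both below the shares of all genes. With the same centring 1 was higher and 1 lower, where WHRN no longer passed (adjusted p = 0.0877). CALML4 of the brush border was at -0.78, WHRN at 0.42 (adjusted p = 0.0409) and MYO7B, the brush border myosin, at 3.92 with an implied standard error of 1.63 (adjusted p = 0.0293). USH1C, the scaffold that binds CDHR2, was at -2.83 and did not pass (adjusted p = 0.102).

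**Figure D3:**
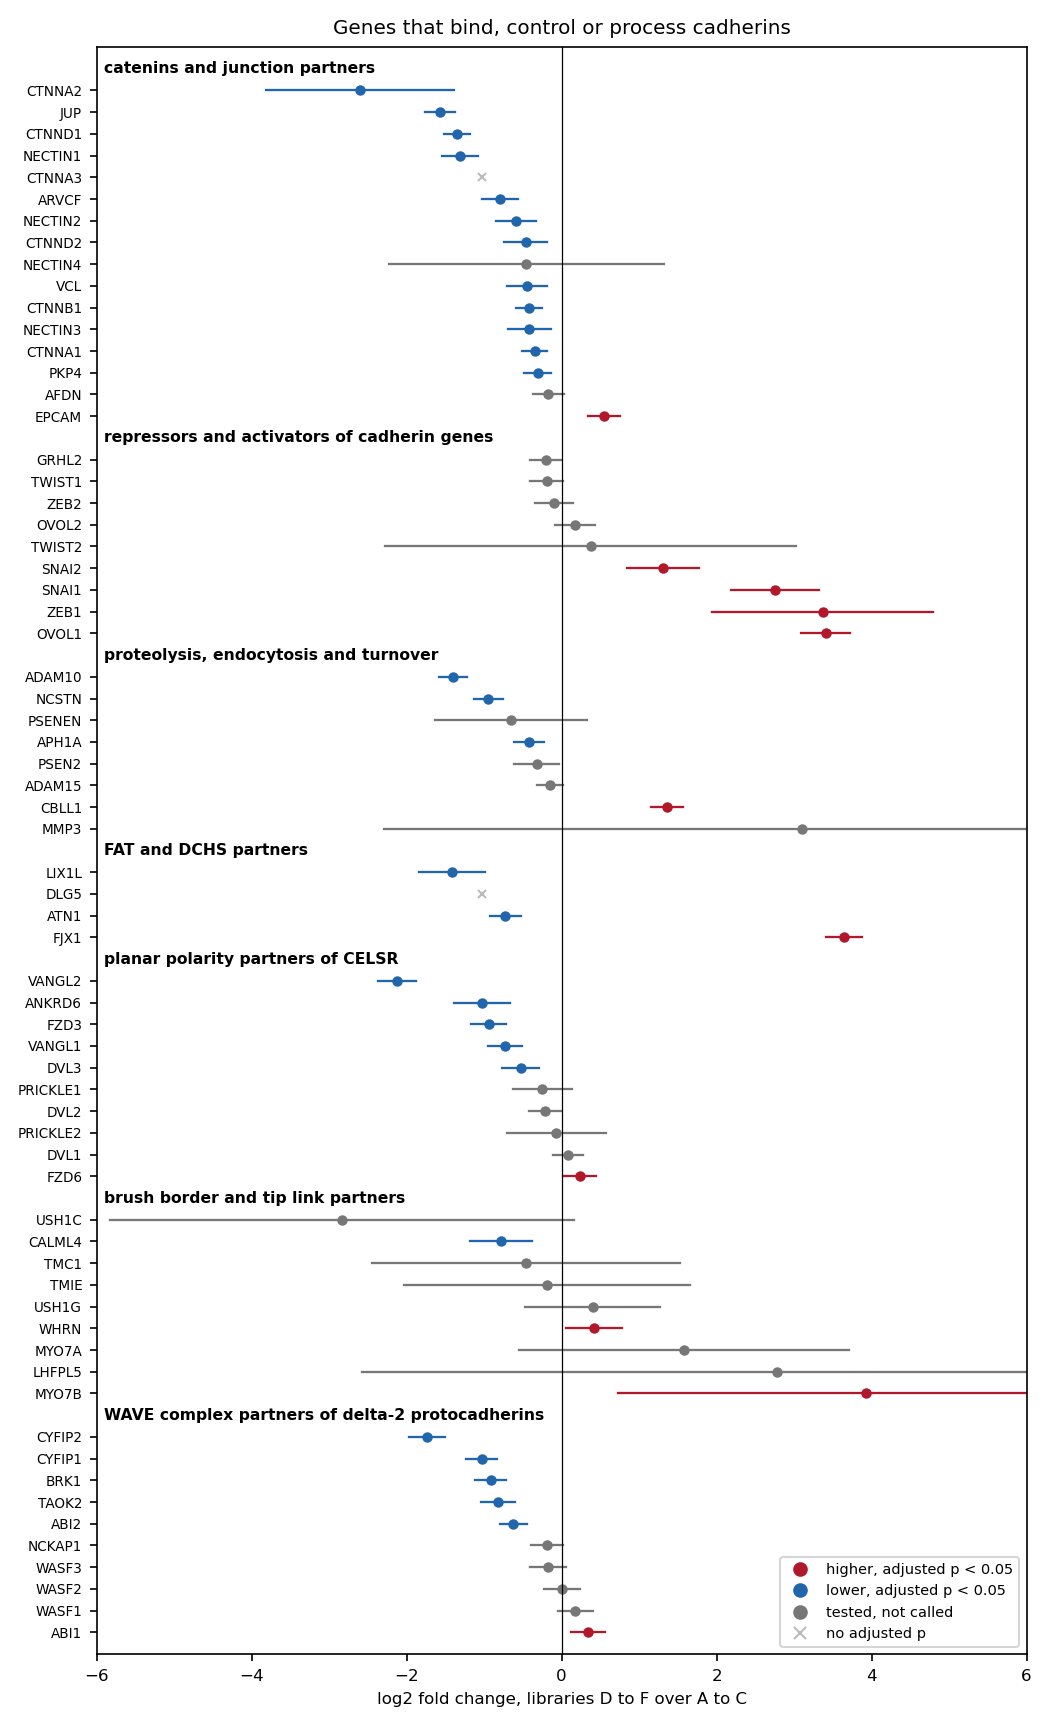
Log2 fold change (horizontal axis, libraries D to F over A to C) of genes that bind, control or process cadherins, by list; bars are 95% intervals from the implied standard error, crosses have no adjusted p, and a bar reaching the frame runs on beyond it. The catenin list lies left of 0 except for EPCAM, and the 4 called transcription factors lie right of it.

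**Figure D4:**
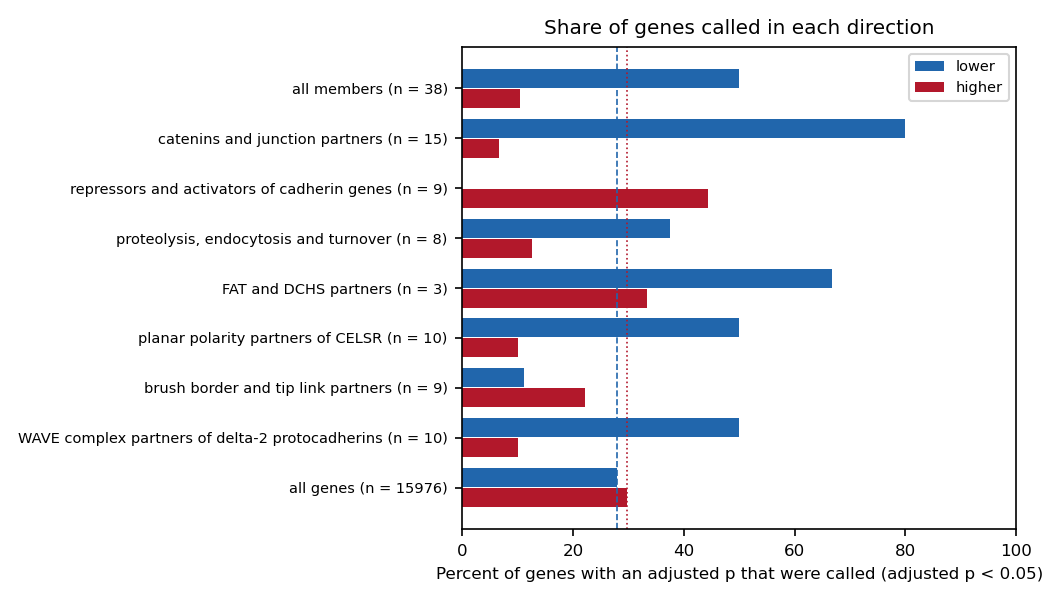
Percent of genes with an adjusted p that were called lower (blue) and higher (red) among the members, each partner list and all genes, with n tested beside each name; dashed and dotted lines repeat the shares of all genes (27.9% lower, 29.7% higher). The members show 50% lower and 10.5% higher, and the planar polarity and WAVE lists 50% and 10% each.

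Since ZEB and SNAI factors bind the E-box, promoters of the members were searched for CACCTG and CAGGTG, which are the same site on opposite strands, from 250 bases before to 50 after each RefSeq start (GRCh38.p14). Promoters of 28 members were searched, with 41 starts in all, and those of CDH1 and CDH22 were not analysed here. The letters were in 6 of the 41 (14.6%), in 20.6% of all 35116 promoters and in 19.2% of those of tested genes. By gene, 17.9% of the members searched and 24.6% of the tested genes held a site at any start, as did 2 of 11 lower members (18.2%) and 0 of 3 higher ones. The 2 lower members with a site before the start are printed, with the site in capitals, 81 bases before the start in PCDH1 and 193 in CDHR2. Sites before a start were also found in CDH23 (104 bases before), CDH4 (16) and PCDH15 (184). CDH23 was not called, and CDH4 and PCDH15 had no adjusted p. The printed PCDH1 window lies within the annotated gene (chromosome 5, 141853111 to 141879246).
PCDH1 (chr5:141869578-141869877, minus strand): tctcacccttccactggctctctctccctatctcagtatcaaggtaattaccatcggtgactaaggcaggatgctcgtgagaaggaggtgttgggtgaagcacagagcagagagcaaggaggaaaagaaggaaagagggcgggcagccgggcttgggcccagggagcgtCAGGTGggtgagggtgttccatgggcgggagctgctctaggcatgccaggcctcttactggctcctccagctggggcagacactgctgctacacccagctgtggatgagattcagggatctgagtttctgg
CDHR2 (chr5:176542261-176542560, plus strand): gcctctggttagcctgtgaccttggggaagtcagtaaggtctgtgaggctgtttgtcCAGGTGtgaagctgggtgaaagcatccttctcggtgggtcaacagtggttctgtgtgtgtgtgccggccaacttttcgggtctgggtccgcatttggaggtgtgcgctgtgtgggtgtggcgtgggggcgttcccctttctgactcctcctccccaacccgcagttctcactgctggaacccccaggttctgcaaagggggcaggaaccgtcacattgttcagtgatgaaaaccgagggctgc
These matches are letters in a window, and binding was not measured.

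Markers of several cell types were read from the same comparison, although all samples were labelled as the same cell line. Levels were not used, so the label of the line was not checked against its markers. Among all genes with an adjusted p, 27.9% were lower and 29.7% higher, and the counts of these short lists are read beside those shares. Of 7 markers of tuft cell-like small cell lung cancer, 4 were lower (57.1%, POU2F3 at a log2 fold change of -1.71) and 1 was higher (14.3%). The epithelial markers EPCAM, KRT8 and KRT18 were higher, as were 2 of 3 neuroendocrine markers (INSM1 and SYP). Of 5 fibroblast markers with an adjusted p 4 were lower (COL1A1, LUM, PDGFRA and PDGFRB). The authors' adjusted p was 0.0395 for LUM and 0.0247 for PDGFRB, and the median implied standard error of this list was 0.75. Of 4 endothelial markers 1 was higher (ESAM), and of 3 leukocyte markers none was called by the authors' adjusted p. The part of other cells in the cadherin values was not tested, and fewer cells of a kind and less RNA per cell cannot be told apart in such samples.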

How the data were processed

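RNA sequencing of 6 samples (3 with ISP-I, 3 with DMSO) was deposited as 2 tables of the authors' own comparison. Per the submitters' processing notes, Trimmomatic, STAR, HTSeq, DESeq2 and hg38 were used; versions, annotation, strand use and batches: not given in the sources used here. Per the file headers, the authors' columns hold log2 fold changes, p-values and adjusted p-values by gene. The 36 per-library columns of both tables carry letters that match no sample's labels and were not used; depth, replicate spread and a count model are therefore not given, and p-values rest on 3 against 3 libraries.

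The smaller table (4021 genes) was tested to hold exactly the larger table's genes that changed at least 2-fold at an unadjusted p under 0.05. In the larger one 977 genes had an adjusted p of 1, and the other 15976 values equal a Benjamini-Hochberg adjustment over those genes. A gene was called at an adjusted p under 0.05. The implied standard error is the absolute log2 fold change divided by the normal quantile of the p-value; this and the adjustment were tested on simulated data. Coordinates are those of GENCODE 29 (GRCh38), where all 44 members matched, and promoters those of RefSeq. Proteins were not used here.

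Every called member is named with its value, and of each partner list up to 5 called genes in each direction with the smallest p, plus SNAI1, SNAI2, ZEB1, ZEB2, CTNNA1, CTNNB1, CTNND1 and JUP. Other partners, the printed arm sequences and the printed promoters were chosen after their values were seen. Some genes of the partner lists are not reported here. Members and lists were chosen with earlier results of these data known. Python 3.11.15, pandas 2.3.3, numpy 2.4.6, scipy 1.17.1 and matplotlib 3.10.9 were used.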

Additional observations from a re-analysis of the deposited data

How the results depend on the processing

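The 19 members called lower numbered 17 at an adjusted p under 0.01, where CDH8 and FAT2 dropped out, and 13 with a minimum of 2-fold or by an unadjusted p under 0.05 and 2-fold. The 4 called higher numbered 1 (CELSR3) at an adjusted p under 0.01, where CDH15, CDH18 and CDHR4 dropped out, and 5 by the latter rule, which added PCDH8. With a minimum of 2-fold, the partner genes called higher numbered 7 in place of 11 and those called lower 10 in place of 28; the cause is the fold limit itself. Centring on the median of all genes (0.06) changed the sign of 1 tested member or partner, the uncalled WASF2, from 0.0045 to -0.059. With p also recomputed from the implied errors, an alternative chosen after seeing the data, 19 members were lower and 3 higher (CDH18 no longer passed), and of the partners 35 were lower and 9 higher (FZD6 and WHRN no longer passed), while all genes were 30.5% lower and 27.5% higher. Adjustment over every row ended 1 call among the 38 members and 64 partner genes tested, FZD6. Limiting promoters to the bases before the start gave 12.2% of the members' promoters with an E-box, beside 17.5% of all promoters and 16.5% of those of tested genes. No paired analysis was possible because no label ties the values per library to samples and their replicate numbers. For the same reason leaving out each replicate and a count test on the libraries were not run. Wide implied errors, over 0.5, limit 9 tested members that were not called, for which a large difference could have gone undetected. CDH5, CDH6 and CDH20 had the widest, and the others were CDH11, CDH19, CDH26, CDHR3, PCDH8 and PCDH20.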
